A study of Homo sapiens with 2 samples.

Results

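Estrogen induces a small set of genes in breast epithelium, and 10 of them are described here by the open chromatin around them in CAMA-1 cells: GREB1, TFF1, TFF3, PDZK1, IGFBP4, CXCL12, MYB, CA12, NRIP1 and AREG. They were picked by name as established targets of the estrogen receptor, by a rule that sets no threshold on a measured value, though at a time when other results of these data were known. They are 10 of 20033 protein-coding genes (GENCODE release 44). CAMA-1 is an established epithelial breast cancer cell line, grown here in DMEM with 10% fetal bovine serum, and the labels name no treatment. The assay for transposase-accessible chromatin (ATAC-seq), in which the Tn5 transposase cuts and tags open DNA, was run on 2 biological replicates of 50000 cells. As both replicates belong to a single condition, no groups could be compared and no response to estrogen was measured.

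Estrogen enters the cell and binds estrogen receptor alpha, a nuclear receptor that then acts as a transcription factor. The receptor pairs with itself on the estrogen response element (ERE), an inverted repeat of the half-site GGTCA, and is also drawn to DNA by other factors such as AP-1. In breast cells, much of its binding lies away from promoters, at sites that FOXA1 and GATA3 help to keep open, and several of the genes described here are used as readouts of receptor activity.

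On hg38, the regulators of transcription were annotated as GREB1 at chr2:11482341-11642788 (plus strand), NRIP1 at chr21:14961235-15065936 (minus strand) and MYB at chr6:135181308-135219173 (plus strand). The secreted proteins were TFF1 at chr21:42362282-42366535 (minus strand), TFF3 at chr21:42311667-42315409 (minus strand), CXCL12 at chr10:44370165-44386493 (minus strand), AREG at chr4:74445136-74455005 (plus strand) and IGFBP4 at chr17:40443450-40457725 (plus strand). The membrane-associated proteins were CA12 at chr15:63321378-63381846 (minus strand) and PDZK1 at chr1:145670852-145708148 (minus strand). The gene bodies ran from 3.74 kb at TFF3 to 160 kb at GREB1, and the number of annotated TSSs from 1 at TFF1 and IGFBP4 to 11 at MYB.

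Each deposited list gave the start and end of every peak and its fold enrichment over background. Within a replicate, the fold enrichments rose in equal steps (0.230 for replicate 1, 0.221 for replicate 2). The peak height, taken here as the number of reads stacked at a peak's highest base, was recovered from them. Whether reads or whole fragments were stacked is not given in the sources used here. On the same reading, the background was a depth of 3.35 reads in the first replicate and 3.52 in the other. A region is a stretch covered by overlapping peaks of both replicates, and a locus is the gene body with 50 kb on either side. The 10 loci held 340 of the 245736 peaks of replicate 1, 349 of the 259745 peaks of replicate 2, and 285 of the 215195 regions. The TFF1 and TFF3 loci overlap on chromosome 21, so that 14 regions belong to both. Markers of the labelled cell type bore a peak within 1 kb of a transcription start site (TSS) in both replicates at 7 of 7 luminal epithelial genes, with a height of 135 and 146 at ESR1, which encodes the receptor itself, 368 and 407 at FOXA1, and 209 and 225 at GATA3. The same held for 4 of 4 basal genes, 3 of 3 fibroblast genes, 2 of 3 endothelial genes and 1 of 4 blood genes, against a background of 79.3% of protein-coding genes. The height of the TSS peaks differed more. Ranked among all protein-coding genes, with genes lacking a TSS peak at 0, the median percentile was 82.0 for luminal and 33.5 for basal genes. It was 70.1 for fibroblast, 40.8 for endothelial and 0 for blood genes. Among the luminal genes, ESR1 ranked at 43.4, GATA3 at 57.6 and FOXA1 at 82.0. PTPRC, CD3E, SPI1 and PECAM1 had no TSS peak in both replicates. An accessible TSS was thus common beyond the luminal markers.

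The DNA that carries the elements named below is shown first, read from hg38 on the strand of each gene, with the ERE or its near match in capitals and 20 bases on either side. The first site is a full ERE, GGTCANNNTGACC, in the first kilobase of NRIP1, at chr21:15065641-15065653. The second is a full ERE downstream of IGFBP4, at chr17:40507558-40507570. The others differ from the full ERE at 1 of its 10 fixed bases and lie in high regions: in an intron of IGFBP4 at chr17:40448868-40448880, in the TSS region of CA12 at chr15:63380697-63380709, and upstream of CA12 at chr15:63387925-63387937.
NRIP1 full ERE: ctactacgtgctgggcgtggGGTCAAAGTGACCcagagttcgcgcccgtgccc
IGFBP4 downstream full ERE: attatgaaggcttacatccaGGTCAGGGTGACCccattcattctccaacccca
IGFBP4 intron: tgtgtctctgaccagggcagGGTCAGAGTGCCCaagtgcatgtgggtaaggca
CA12 TSS: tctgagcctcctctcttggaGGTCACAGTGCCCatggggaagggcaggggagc
CA12 upstream: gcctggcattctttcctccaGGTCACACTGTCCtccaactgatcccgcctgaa
With positions counted from 1 at the first base of the element on the gene's strand, and the base of the ERE written first, the substitution was A11C in the intron of IGFBP4 and in the TSS region of CA12, and A11T upstream of CA12.

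RefSeq promoters (GRCh38.p14, 250 bases before to 50 after the start) were matched for 7 of the 10 genes, namely PDZK1, IGFBP4, CXCL12, MYB, CA12, NRIP1 and AREG. Of these, 4 are printed because they hold a named promoter motif or stand apart in base composition. IGFBP4 (chr17:40443200-40443499, plus strand) and AREG (chr4:74444886-74445185, plus strand) hold the TATA motif TATAAA, in capitals, whose first base lies 29 bases before the start in both. MYB (chr6:135181058-135181357, plus strand) holds the forkhead motif TGTTTAC, in capitals, 14 bases before the start. PDZK1 (chr1:145707351-145707650, minus strand) holds no searched motif.
IGFBP4: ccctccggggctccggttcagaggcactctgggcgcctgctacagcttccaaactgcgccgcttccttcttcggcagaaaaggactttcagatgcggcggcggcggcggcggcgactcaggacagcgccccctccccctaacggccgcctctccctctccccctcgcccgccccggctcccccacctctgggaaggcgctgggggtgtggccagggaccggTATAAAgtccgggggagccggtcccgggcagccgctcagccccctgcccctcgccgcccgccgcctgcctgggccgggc
AREG: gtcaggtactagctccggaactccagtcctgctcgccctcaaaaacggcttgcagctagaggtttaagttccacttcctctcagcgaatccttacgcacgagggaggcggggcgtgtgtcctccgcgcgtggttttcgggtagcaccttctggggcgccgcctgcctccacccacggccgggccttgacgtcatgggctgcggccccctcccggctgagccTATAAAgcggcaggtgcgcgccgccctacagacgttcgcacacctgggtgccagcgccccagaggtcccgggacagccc
MYB: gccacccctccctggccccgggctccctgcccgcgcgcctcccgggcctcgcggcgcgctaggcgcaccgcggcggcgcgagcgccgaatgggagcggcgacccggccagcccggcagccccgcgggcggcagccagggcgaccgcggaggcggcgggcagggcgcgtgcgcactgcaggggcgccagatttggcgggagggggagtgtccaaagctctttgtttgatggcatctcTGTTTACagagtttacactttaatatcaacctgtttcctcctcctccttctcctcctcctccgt
PDZK1: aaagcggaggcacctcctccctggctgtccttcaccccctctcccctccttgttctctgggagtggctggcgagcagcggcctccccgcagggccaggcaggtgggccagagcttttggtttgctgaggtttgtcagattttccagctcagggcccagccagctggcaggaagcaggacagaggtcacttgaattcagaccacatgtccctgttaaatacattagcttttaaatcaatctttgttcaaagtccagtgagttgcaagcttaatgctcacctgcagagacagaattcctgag
TATAAA was found in 2 of the 7 promoters and in 11.5% of all 35116 RefSeq promoters, and TGTTTAC in 1 of the 7 and in 3.42%. None of the 7 held a full ERE (0.0570% of all promoters), an ERE with 1 mismatch or fewer (0.817%), the GATA motif AGATAA (10.3%) or the AP-1 motif TGANTCA (7.71%), searched on both strands. The ratio of observed to expected CpG was 0.181 at PDZK1, at the 19.4th percentile of all promoters. At the other 6 it ran from 0.662 at CA12 to 0.928 at MYB, above the median of 0.579. For genes with several RefSeq starts, the first listed was used.

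All 10 genes had a peak within 1 kb of an annotated TSS in both replicates, against a background of 79.3% of protein-coding genes. The highest such peak was 507 reads in replicate 1 and 499 in replicate 2 at CA12, a membrane-bound carbonic anhydrase that acidifies the space around the cell, and 398 and 395 at GREB1, a coregulator of the estrogen receptor. TFF3, a secreted trefoil peptide of mucosal surfaces, had 249 and 246. These 3 genes kept the same order in both replicates. The 95% exact Poisson intervals take heights as independent counts and cover counting error only. In replicate 1 they were 464 to 553 for CA12, 360 to 439 for GREB1 and 219 to 282 for TFF3, and did not overlap.

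The other 7 genes lay close together, and TFF3 was not clear of all of them. Its interval (219 to 282 and 216 to 279) overlapped that of CXCL12 (174 to 231 and 197 to 257) in both replicates. In replicate 2 it also overlapped those of NRIP1, AREG and PDZK1. CXCL12, a chemokine that attracts cells bearing CXCR4, had 201 and 226, NRIP1, a corepressor of nuclear receptors, had 189 and 232, and AREG, a ligand of the epidermal growth factor receptor, had 182 and 198. The intervals of these genes overlapped in both replicates. MYB, a transcription factor, had 176 and 172. PDZK1, a scaffold protein under the plasma membrane, had 161 and 202. IGFBP4, which binds insulin-like growth factors outside the cell, had 159 and 169, and TFF1, the trefoil peptide also called pS2, had 150 and 141. The interval of TFF1 (127 to 176 and 119 to 166) overlapped that of IGFBP4 (135 to 186 and 144 to 196) in both replicates, so the 2 lowest genes were not told apart at this depth, while the intervals of TFF1 and TFF3 were separate.

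**Figure D1:**
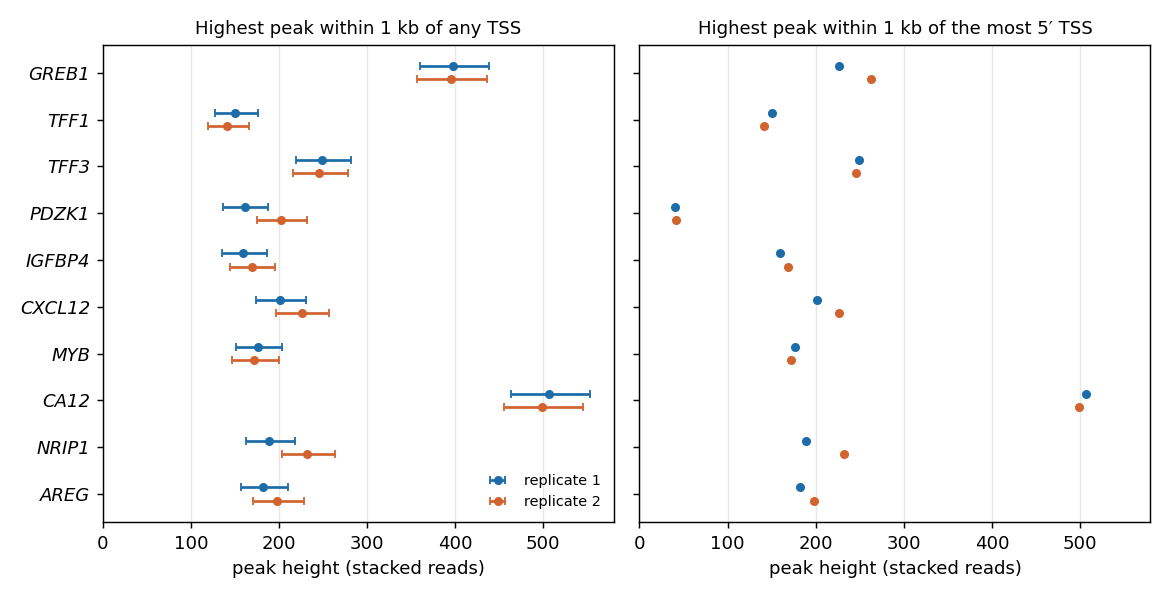
Peak height in stacked reads (horizontal axes) at the TSSs of the 10 genes in replicate 1 (blue) and replicate 2 (orange), for the highest peak within 1 kb of any annotated TSS (left, bars are 95% exact Poisson intervals) and of the most 5′ TSS (right). CA12 (507 and 499) and GREB1 (398 and 395) stand above the other 8 genes on the left, and PDZK1 falls to 40 and 42 on the right.

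Ranked among all protein-coding genes, with genes lacking a TSS peak at 0, these heights were spread around the middle. The percentile, averaged over replicates, was 90.9 for CA12, 82.9 for GREB1 and 63.0 for TFF3, and ran from 44.5 (TFF1) to 57.0 (CXCL12) for the other 7. The median over the 10 genes was 54.6 ± 1.77 (SD over the 2 replicates). The choice of TSS mattered at GREB1 and PDZK1. The highest TSS peak of GREB1 lay in a region over an internal start, at chr2:11539014-11543187, whose midpoint was 58760 bp into the gene. A start of the microRNA gene MIR4429 also lay within 1 kb of this region. The peak at the most 5′ TSS of GREB1 had a height of 226 and 263. At PDZK1, the highest TSS peak lay at an internal start at chr1:145690547-145691438, and the most 5′ TSS had 40 and 42. With the most 5′ TSS of every gene alone, PDZK1 ranked at the 34.7th percentile and GREB1 at the 68.4th.

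At TFF1, the TSS itself lay under a region at chr21:42366221-42367047 with a height of 104 and 121. The higher peak of 150 and 141 lay 849 bp upstream, at chr21:42367384-42367764. At CXCL12, the region with 201 and 226 (chr10:44386500-44387068) lay just upstream of the most 5′ TSS, and the RefSeq promoter (chr10:44385048-44385347) lay under a lower region with 42 and 48. The regions over the RefSeq promoters of IGFBP4, MYB, CA12, NRIP1 and AREG had heights between 159 and 507 in replicate 1 and between 169 and 499 in replicate 2. The region covered 42.7% of the NRIP1 promoter and all of the others. The region over the promoter of PDZK1, the one with the lowest CpG ratio, had 40 and 42.

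The number of regions, those at TSSs included, differed widely between loci. GREB1 had 85 regions, CA12 52, IGFBP4 36, TFF1 29, TFF3 24, MYB 23, PDZK1 and NRIP1 15 each, CXCL12 12 and AREG 8. Distal regions, over 1 kb from any TSS of any gene, ran from 67 at GREB1 to 7 at AREG. Per 100 kb, the density was 32.6 regions at GREB1, 32.4 at CA12, 31.5 at IGFBP4, 27.8 at TFF1 and 23.1 at TFF3, against a median of 11.4 over all protein-coding genes. MYB had 16.7, PDZK1 10.9, CXCL12 10.3, NRIP1 7.33 and AREG 7.28. GREB1, CA12, IGFBP4 and TFF1 ranked above the 90th percentile of protein-coding genes, and NRIP1 and AREG ranked at the 32.0th and 31.7th. The median percentile over the 10 genes was 75.6. The windows are not independent of their neighbours: other protein-coding genes start within the window of 6 of the 10 genes, 4 of them at TFF1 (TFF2, TFF3, TMPRSS3 and UBASH3A) and 3 at GREB1 (E2F6, LPIN1 and NTSR2).

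**Figure D2:**
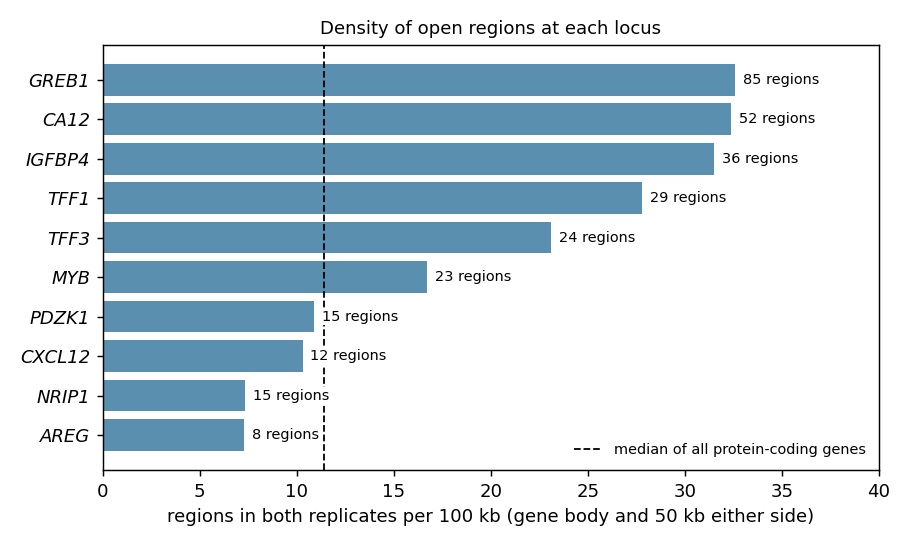
Regions called in both replicates per 100 kb (horizontal axis) at each of the 10 loci, with the number of regions beside each bar and the median of all protein-coding genes (11.4) as a dashed line. GREB1, CA12 and IGFBP4 exceed 30 regions per 100 kb, and PDZK1, CXCL12, NRIP1 and AREG lie below the median.

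The share of DNA under regions gave a similar order, led by IGFBP4. Regions covered 40.9% of the IGFBP4 window, 27.2% of that of GREB1 and 26.5% of that of CA12, against a median of 5.87% over all protein-coding genes. Within the gene bodies, they covered 58.0% of IGFBP4, 54.2% of TFF1, 48.6% of CA12, 36.7% of GREB1 and 24.3% of TFF3, against a median of 5.34%. NRIP1 was the lowest on both measures, with 3.28% of its window and 2.67% of its body. The position of the regions also varied. GREB1 and CA12 had most of theirs in introns (56 of 85 and 31 of 52), whereas TFF1 and TFF3, genes of 4.25 kb and 3.74 kb, had most outside the gene. AREG had 6 of its 8 regions downstream and 1 upstream.

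**Figure D3:**
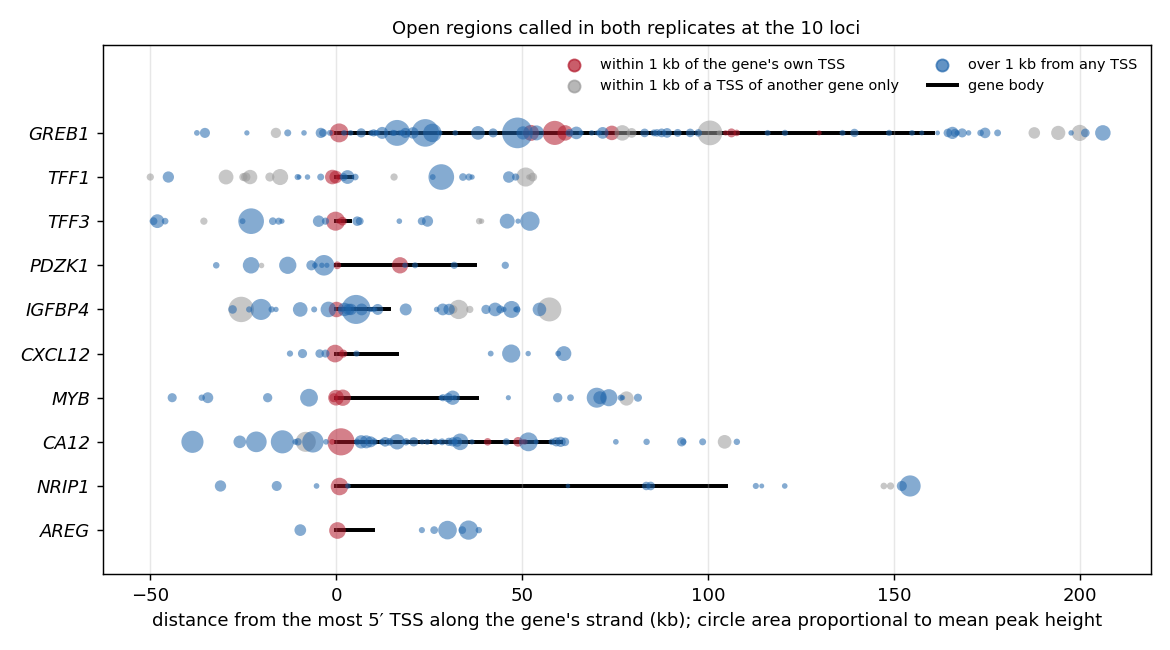
Regions called in both replicates at the 10 loci, by the distance of their midpoints from the most 5′ TSS along the gene's strand in kb (horizontal axis), with circle area proportional to the mean peak height, black lines for gene bodies, and colours for regions within 1 kb of the gene's own TSS (red), of another gene's TSS only (grey) and over 1 kb from any TSS (blue). GREB1 carries 85 regions, most of them in introns, and AREG carries 8.

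At 9 of the 10 genes, all except CA12, the strongest distal region, by its mean over replicates, was higher than every TSS peak of the gene in both replicates. The background for this pattern was 48.3% of the 15890 protein-coding genes with TSS peaks. A window with more regions offers more candidates for the strongest, and the background was not matched for the number of regions. TFF1 and TFF3 counted the same distal region, so the 9 genes stand for 8 regions. At CXCL12, the excess was within counting error, with 223 and 227 for the distal region and 201 and 226 at the TSS. The count of 9 depends on the 50 kb flank, which was not varied for it. At NRIP1, the deciding region lay across the edge of the window. The next distal region there had 82 and 93, below the TSS peak of 189 and 232. The deciding regions of TFF1, TFF3 and CXCL12 lay over 20 kb beyond the gene body.

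The highest region of all 10 loci lay in an intron of GREB1, at chr2:11530656-11531471, 48723 bp downstream of the most 5′ TSS, with a height of 602 in replicate 1 and 682 in replicate 2 (fold enrichments of 139 and 151). It ranked above 99.4% and 99.6% of all regions. It was part of a series along the gene. A region 16364 bp into the gene had 457 and 459, and one 23961 bp in had 534 and 505. Another, 100472 bp in and within 1 kb of a start of the pseudogene RN7SL674P, had 409 and 427. Distal regions upstream of GREB1 were lower: the highest had 93 in replicate 1, where replicate 2 had 51, and another, 35290 bp upstream, was the highest in replicate 2, with 68 and 71.

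**Figure D4:**
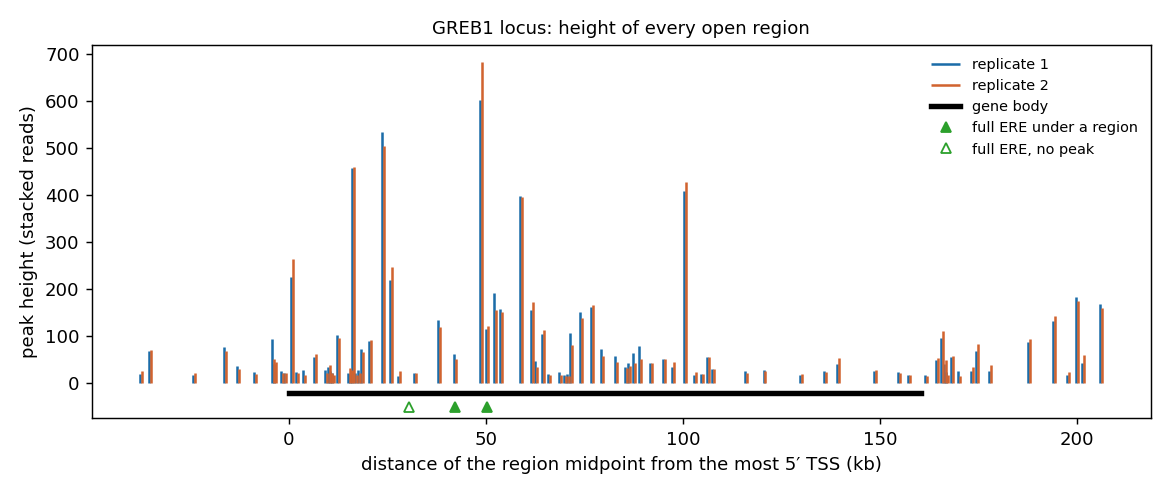
Peak height in stacked reads (vertical axis) of every region called in both replicates at the GREB1 locus, by the distance of its midpoint from the most 5′ TSS in kb (horizontal axis), in replicate 1 (blue) and replicate 2 (orange), with the gene body as a black bar and full EREs as triangles (filled under a region, open without a peak). The highest region (602 and 682) lies in the gene body, 48723 bp from the TSS, and 2 of the 3 EREs lie under regions of lower height.

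IGFBP4 had the next highest distal region, with 543 and 607 at chr17:40448011-40449559, in an intron 5335 bp downstream of the TSS. Its strongest distal upstream region, 20198 bp before the TSS, had 312 and 293, and a region at the TSS of TOP2A, further upstream, had 454 and 426. All 3 exceeded the TSS peak of IGFBP4 (159 and 169). The region shared by TFF1 and TFF3, at chr21:42337831-42338729, had 440 and 457 and lay between the genes, 22871 bp upstream of TFF3 and 28255 bp downstream of TFF1. The strongest distal region upstream of TFF1 had 94 and 80.

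CA12 had its strongest distal region 14469 bp upstream, within the long non-coding RNA gene LINC02568, with 382 and 347, below its TSS peak. In replicate 2 alone, a region 6269 bp upstream was slightly higher, with 273 and 352. PDZK1 had 274 and 304 at chr1:145711062-145711808, 3287 bp upstream of its most 5′ TSS, where the peak had only 40 and 42. MYB had 254 and 291 at 70042 bp downstream of its TSS, beyond the end of the gene, and 216 and 215 at 7306 bp upstream. NRIP1 had 283 and 328 at 154289 bp downstream of its TSS, beyond the gene, and AREG had 242 and 262 at 35582 bp downstream. Upstream of these genes, distal regions were lower. The strongest had 82 and 93 at NRIP1, 31109 bp before the TSS, 72 and 115 at AREG, 9652 bp before it, and 57 and 57 at CXCL12, 9058 bp before it. The strongest distal region thus lay in the gene body at GREB1 and IGFBP4, upstream at TFF3, PDZK1 and CA12, and beyond the gene's end at TFF1, CXCL12, MYB, NRIP1 and AREG.

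As a set, the regions of the 10 loci had heights close to those of all regions, and the difference was not tested. Their median height was 42.0 in replicate 1 and 47.0 in replicate 2, and that of all regions was 41.0 and 44.0. The range was 13 to 602 and 13 to 682. A height over 100 in both replicates was reached by 73 of the 285 regions (25.6%), against a background of 22.7%. GREB1 (18 of 85), CA12 (13 of 52) and IGFBP4 (12 of 36), the loci with the most regions, held most of these. TFF1 had 8 of 29, TFF3 5 of 24, MYB 8 of 23 and PDZK1 4 of 15. NRIP1 had 2 of 15, CXCL12 3 of 12 and AREG 3 of 8. The 61 regions within 1 kb of a TSS had a median height of 77.0 and 73.0, and the 224 distal regions 37.0 and 41.0. Over all regions of the genome, these medians were 70.0 and 74.0 at TSSs and 38.0 and 41.0 for distal regions, a contrast much like that at the 10 loci. The ratio of median fold enrichment between the classes at the 10 loci was 2.05 and 1.76 (mean 1.91). When each replicate was run alone, on its own peaks and not on the regions of both, the SD of the ratio was 0.214 (n = 2). Among the 50000 strongest peaks of each replicate the ratio reversed, to 0.874, on 71 regions. These peaks were kept by the same fold enrichment that the ratio compares, so this value does not bear on the classes as a whole.

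Full EREs were few, and 5 lay in the windows of the 10 genes: 3 at GREB1, 1 at IGFBP4 and 1 at NRIP1. Of these, 3 (60.0%, 95% Wilson interval 23.1% to 88.2%) lay under a region, against a background of 13.6% of the 2205 full EREs of the genome and 15.7% of the 1507 in the windows of all protein-coding genes. The 3 EREs of GREB1 lay in its body, of which regions covered 36.7%, against a median of 5.34% over all protein-coding genes. The part of this local coverage in the share was not tested. At GREB1, the ERE at chr2:11532534-11532546 lay 30 bp from the midpoint of an intronic region with a height of 115 and 122. The ERE at chr2:11524600-11524612 lay in an intronic region with 61 and 51, and the ERE at chr2:11512910-11512922, also intronic, had no peak in either replicate. None of the 3 lay in the highest region of the gene.

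The ERE of NRIP1 printed above lay in an intron 289 bp downstream of the most 5′ TSS, under the TSS region, 575 bp from its midpoint. In replicate 1 the peak over it was a separate one with a height of 105, and in replicate 2 it lay within the TSS peak of 232. The ERE downstream of IGFBP4 was covered by a peak of height 20 in replicate 2 only (chr17:40507506-40507699), and counts as not under a region. The other 7 genes had no full ERE within their windows.

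Within 150 bp of the midpoint, 2 of the 224 distal regions held a full ERE (0.893%, 0.245% to 3.20%), both at GREB1, against a background of 0.101% of 172293 distal regions. With 1 mismatch allowed, 6 did (2.68%, 1.23% to 5.72%), against 1.19%. These shares rest on 2 and 6 regions. In distal regions, the other motifs were no more frequent than in the background. The forkhead motif was found in 17 distal regions (7.59%, background 8.12%), the GATA motif in 33 (14.7%, background 15.7%) and the AP-1 motif in 23 (10.3%, background 14.6%). Of the 61 regions at TSSs, 9 held the GATA motif (14.8%, 7.96% to 25.7%, against 8.86% of all TSS regions). The forkhead motif was in 4 (6.56%, against 4.38%) and the AP-1 motif in 3 (4.92%, against 9.22%). A match of letters does not show that a factor was bound.

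Near matches to the ERE, with 1 mismatch, numbered 12 under the regions of the 10 loci, and lay in both high and low ones. Of these, 6 lay under regions with a height over 100 in both replicates, a height that 22.7% of all regions reached, and 6 under lower regions, whose heights spanned 13 to 72 (replicate 1) and 15 to 63 (replicate 2). As wide regions hold more sequence, and no account was taken of width, these shares are a description only. At GREB1, an element with the substitution T3G lay 30 bp from the midpoint of the intronic region with 457 and 459 (chr2:11498729-11498741). At IGFBP4, the A11C element printed above lay 89 bp from the midpoint of the intronic region with 543 and 607, the strongest of that locus. Another A11C element of IGFBP4, at chr17:40443732-40443744, lay 288 bp downstream of the TSS, under the TSS region (159 and 169). At CA12, the A11C element lay 136 bp from the midpoint of the TSS region with 507 and 499, and 1143 bp downstream of the most 5′ TSS. The A11T element of CA12 lay 184 bp from the midpoint of a distal region with 273 and 352. At TFF1, an A11G element at chr21:42366928-42366940, 399 bp before the TSS on the gene's strand, lay under the region over the TSS (104 and 121). PDZK1, CXCL12, MYB, AREG and TFF3 had no element with 1 mismatch or fewer under a region in their windows.

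The replicates gave close values at these loci. Of the peaks at the 10 loci, 87.9% in replicate 1 and 88.3% in replicate 2 overlapped a peak of the other replicate, compared with 90.2% and 84.7% of all peaks. The 41 peaks of each replicate without a counterpart were low, with a median height of 17.0 in both and a maximum of 26 and 32. GREB1 held the most of them, 20 in replicate 1 and 11 in replicate 2. Across the 285 regions, the log2 ratio of heights, replicate 2 over replicate 1, had a median of −0.02 and an SD of 0.32, and ran from −0.91 to 0.99, compared with a median of 0.03 and an SD of 0.29 over all regions.

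**Figure D5:**
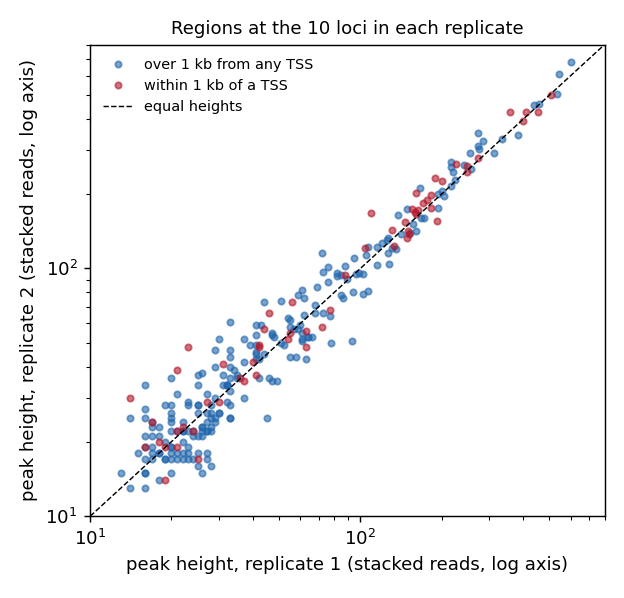
Peak height in stacked reads in replicate 2 (vertical log axis) against replicate 1 (horizontal log axis) for the 285 regions of the 10 loci, with regions within 1 kb of a TSS in red, the others in blue, and a dashed line of equal heights. Points lie along the line, with the widest scatter among low regions.

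A list of 30 other estrogen-induced genes placed these values. A TSS peak in both replicates was found at 29 of the 30, all but CALCR, and the median percentile of TSS height was 69.3, compared with 54.6 for the 10 genes described here. The highest were CELSR2 (1282 and 1316), CCND1 (1118 and 1166), RARA (825 and 885) and STC2 (695 and 731), all above CA12. Besides CALCR, the lowest were RAB31 (64 and 88), PRSS23 (90 and 89) and PGR (85 and 97), the progesterone receptor, all below TFF1. The median density percentile was 74.2, beside 75.6. A distal region higher than every TSS peak was found at 15 of the 30, near the background of 48.3% of protein-coding genes with TSS peaks.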

How the data were processed

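ATAC-seq peak lists of 2 biological replicates of CAMA-1 (1 condition) were used. Per the labels and methods, the authors trimmed reads with Trim Galore 0.6.5, aligned them with Bowtie2 2.3.5.1 to hg38 and called peaks with MACS2 2.2.6 in each replicate. MACS2 settings, the treatment of duplicates and excluded regions are not given in the sources used here. The authors deposited, for each peak, a score (10 times the −log10 q), a fold enrichment (a ratio to background), a −log10 p-value and a −log10 q-value, without counts or summits. The depth of each library is not part of these lists and was not used. Which low peaks were called depends on it.

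Fold enrichment was read as (height + 1) / (background + 1). Values lay within 7.16e-05 (replicate 1) and 8.13e-05 (replicate 2) of a step from a whole multiple. Heights were not corrected for DNA copy number. Peaks of the replicates were merged on an overlap of 1 bp. Genes and TSSs came from GENCODE release 44, and a distal region lay over 1 kb from any TSS. Motifs were searched on both strands within 150 bp of region midpoints, since summits were not used. In the highest TSS and distal regions of each gene, up to 9.91% of 32-base words had another copy in hg38. Percentiles give the share of protein-coding genes with a lower value. With 1 condition, no test was run, and values are given per replicate. Shares carry 95% Wilson intervals, for counting error only.

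All 10 genes were described, with their highest TSS peak, strongest distal region, strongest distal upstream region and full EREs. Of the other estrogen-induced genes, those without a TSS peak and the 4 highest and 4 lowest were named. Other near matches, regions and markers were chosen after their values were seen. The genes were picked by name and not by a measured value, but they, the lists and the motifs were chosen with earlier results of these data known. Alternatives were other peak thresholds, windows, distances, overlaps, TSSs and measures of strength, and leaving out each replicate. Simulated peaks with known answers were used to test the code, which ran under Python 3.11.15 with scipy 1.17.1, numpy 2.4.6 and matplotlib 3.10.9.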

Additional observations from a re-analysis of the deposited data

How the results depend on the processing

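All 10 genes kept a TSS peak in both replicates (or in the single replicate left) under every alternative run for that count. Over 8 results, 66 alternatives were run, of which 35 left the value in place, 30 moved it and 1 reversed it, and the causes were not tested. A count was called moved beyond a fixed factor, and any other value once it differed by the SD over the 2 replicates or more. That SD was only 0.220 for the share of peaks found again. The tally thus mixes unlike rules and does not measure how stable the results are. The median TSS percentile (54.6) became 56.9 within 100 bp of a TSS, 61.4 at the most 5′ TSS alone and 58.7 among genes of the same chromosome. The number of regions (285) became 71 among the 50000 strongest peaks and 132 in gene bodies, by construction. The median density percentile (75.6) ran from 71.1 to 76.7 without either replicate and was 71.3 with 100 kb on either side. The share of peaks found again (88.1%) became 89.5% at a −log10 q of at least 10, 95.4% among the 50000 strongest, 88.9%, 88.4% and 89.8% with 20 kb, 100 kb and gene bodies, and 77.8% with a reciprocal overlap of 50%.

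The share of distal regions with a full ERE (0.893%) became 1.27% at a −log10 q of at least 10, 2.38% among the 50000 strongest, 1.18%, 0.580% and 1.98% with 20 kb, 100 kb and gene bodies, and 0.568% over 3 kb from any TSS, on 1 or 2 regions each. With 1 mismatch (2.68%) it became, in the same order, 3.18%, 7.14%, 3.55% with 20 kb, 5.94% in gene bodies and 2.27% over 3 kb, and 2.23% within 100 bp of the midpoint and 4.02% over whole regions. The ratio of TSS to distal regions (1.91) became 2.30 at a −log10 q of at least 10, 2.71 by −log10 q, 2.14 with 100 kb and 3.19 in gene bodies. It reversed to 0.874 among the 50000 strongest peaks, which were kept by the value that the ratio compares. No paired analysis was possible because the 2 replicates form a single condition. Read totals were not used here, so the part of depth in which low peaks were called was not tested.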
